A study of Mus musculus with 33 samples.

Results

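The genes described here carry glucose into brain cells, break it down to pyruvate and lactate, move lactate between cells, and build or break down glycogen. They were chosen by symbol, 32 genes of the 21565 in the expression table, and all 32 were found. By role they are 15 glycolytic enzymes, 2 lactate dehydrogenases, 5 transporters of glucose or lactate, 2 bifunctional regulators of phosphofructokinase, 2 glycogen phosphorylases, and 6 genes of glycogen synthesis and its control. Polyadenylated RNA of the frontal cortex (FC) was sequenced from 33 adult male mice of C57BL/6J background, all collected at ZT6, 6 hr after lights on. Of the wild-type (WT) mice, 6 slept undisturbed (control sleep, CS), 7 were kept awake for 6 hr (sleep deprivation, SD), and 7 were kept awake for 4 hr and then slept for 2 hr (recovery sleep, RS). Mef2c f/f mice, which carry loxP sites around a single exon of the transcription factor gene Mef2c, gave 4 CS and 3 SD samples. Mef2c-cKO mice carry the same floxed alleles together with a Camk2a-Cre transgene, which drives recombination mainly in excitatory neurons of the forebrain, and gave 3 CS and 3 SD samples. The study notes that some of its cKO mice had a germline recombination of a single allele. RS was not sampled in the Mef2c line.

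Glycolysis splits glucose into pyruvate with a small yield of ATP, and lactate dehydrogenase converts pyruvate and lactate into each other. In brain, astrocytes take up glucose from the vessels, hold nearly all of the glycogen and release lactate, whereas neurons take up glucose and lactate and burn most of their fuel in mitochondria. Glucose enters through the GLUT transporters encoded by Slc2a1 (endothelium and astrocytes) and Slc2a3 (neurons), and lactate crosses membranes through the monocarboxylate transporters encoded by Slc16a1 (endothelium and glia), Slc16a3 (astrocytes) and Slc16a7 (neurons).

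Levels are given as rescaled CPM, the deposited CPM (read counts scaled to a fixed library total) divided by a size factor that sets the libraries to a common median. Per kb of transcript in the CS samples of WT, the most abundant members were Gapdh (607 rescaled CPM per kb), Aldoa (508), Pkm (307) and Ldhb (220). These encode the dehydrogenase at the middle of glycolysis, the main aldolase, pyruvate kinase and the heart-type subunit of lactate dehydrogenase. At the other end stood Hk2, the inducible hexokinase (0.514), Pfkfb2, a bifunctional regulator (0.352), and Slc16a3 (0.25), which had as few as 13 reads in 1 library. The 15 glycolytic enzymes together held 4141 to 5798 rescaled CPM in CS (median 5056), 4666 to 7034 in SD (median 6071) and 5100 to 7091 in RS (median 5895) of WT. These ranges overlapped among all 3 states.

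The libraries held 18935045 to 249046089 reads. WT libraries differed in how their counts depended on the GC content of genes. Log2 levels were taken as deviations from the gene's mean over the libraries of the same line (WT or the Mef2c line). The slope of these deviations on GC content, per 10 percentage points of GC, was -0.911 to -0.055 in CS of WT, -0.0106 to 0.328 in SD and -0.157 to 0.362 in RS. It was -0.164 to 0.22 in all samples of the Mef2c line. Slopes are thus relative within a line, so that negative slopes in some WT libraries go with positive ones in others. The 3 most negative slopes in WT were those of CS replicates 1, 2 and 3. The calls of members are therefore also given with a smooth trend on GC content and transcript length removed from every library ("with the GC trend removed"), and, where they rest on WT CS, without these 3 libraries. The summed level of 8 markers of meningeal fibroblasts was 112 to 547 rescaled CPM in CS, 521 to 974 in SD and 137 to 771 in RS of WT, and 6 of 8 were higher in SD than in CS. That of 5 markers of red blood cells was 28.2 to 118, 97.9 to 285 and 85.3 to 139, with 5 of 5 higher in SD. No marker of either list was at 0 in every library of a group, and their part in the results below was not tested. Mef2c itself had 1085 to 2019 rescaled CPM in CS and 682 to 970 in SD of WT, 1080 to 1406 over all Mef2c f/f samples and 957 to 1727 over all Mef2c-cKO samples. These values are of the whole gene, of which a single exon is floxed, and do not check the deletion.

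Several members share sequence with near-identical copies, so that uniquely mapped reads undercount them. The share of 100-base windows of the transcript that also occur in another annotated gene was 78% for Gapdh, 67.0% for Pgk1, 59.0% for Eno1, 39.7% for Pgam1 and 23.9% for Pfkfb2. Their levels are uncertain for that reason. In bulk tissue, fewer cells of a type and less RNA per cell cannot be told apart.

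Promoters of 30 members were found in RefSeq (GRCm38.p6), with none for Slc2a3 and Slc16a7. Windows of 250 bases before the RefSeq start were searched on both strands for the core letters bound by hypoxia-inducible factors, which are ACGTG in the common form and are written GCGTG in the other form. The E-box CACGTG, which contains the common form on each strand, and the MEF2 consensus were searched as well. Either form of the core was found in 23 of 30 members (76.7%), against 41.5% of all 27025 genes, and the common form in 16 members (53.3%) against 18.5%. The E-box occurred in 6 members (20%), against 6.86% of all genes. Member promoters were richer in G and C, with a median of 60.4% over 45 windows against 52.4% over all 32851. The MEF2 consensus was in 0 of 30 members and in 1.99% of all genes. A match is a description of letters and does not show binding. The promoters printed here are those of 3 of the members that rose after SD in WT both with and without the GC trend removed (Slc2a1, Hk2, Pgk1) and of 2 of the members that differed between Mef2c-cKO and Mef2c f/f after SD in both (Slc16a1, Pygm). Slc2a3 in the first comparison, and Slc16a7 and Pfkfb2 in the second, also passed in both and are not printed. Sequences run 5′ to 3′ along the gene's strand, with both forms of the core and their reverse complements in capitals.
Slc2a1, chr4:119108495-119108744, plus strand: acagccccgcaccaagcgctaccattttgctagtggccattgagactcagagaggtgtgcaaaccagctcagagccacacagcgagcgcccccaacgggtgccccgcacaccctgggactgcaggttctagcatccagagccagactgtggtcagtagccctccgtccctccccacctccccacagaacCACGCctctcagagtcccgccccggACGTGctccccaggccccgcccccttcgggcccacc
Hk2, chr6:82774455-82774704, minus strand: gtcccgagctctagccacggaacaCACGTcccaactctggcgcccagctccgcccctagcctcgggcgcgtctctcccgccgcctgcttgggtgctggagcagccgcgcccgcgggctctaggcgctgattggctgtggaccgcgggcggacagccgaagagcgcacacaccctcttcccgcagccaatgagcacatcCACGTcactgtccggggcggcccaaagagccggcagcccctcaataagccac
Pgk1, chrX:106186850-106187099, plus strand: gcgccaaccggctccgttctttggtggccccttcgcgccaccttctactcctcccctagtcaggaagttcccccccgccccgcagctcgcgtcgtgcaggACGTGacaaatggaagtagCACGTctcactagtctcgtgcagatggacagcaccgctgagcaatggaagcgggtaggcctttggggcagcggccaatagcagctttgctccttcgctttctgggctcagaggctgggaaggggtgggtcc
Slc16a1, chr3:104638414-104638663, plus strand: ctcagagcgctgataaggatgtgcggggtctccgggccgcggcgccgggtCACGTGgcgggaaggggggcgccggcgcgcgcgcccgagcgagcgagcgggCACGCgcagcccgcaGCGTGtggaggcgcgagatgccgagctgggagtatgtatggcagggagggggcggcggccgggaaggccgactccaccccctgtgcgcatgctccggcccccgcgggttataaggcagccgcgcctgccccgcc
Pygm, chr19:6384158-6384407, plus strand: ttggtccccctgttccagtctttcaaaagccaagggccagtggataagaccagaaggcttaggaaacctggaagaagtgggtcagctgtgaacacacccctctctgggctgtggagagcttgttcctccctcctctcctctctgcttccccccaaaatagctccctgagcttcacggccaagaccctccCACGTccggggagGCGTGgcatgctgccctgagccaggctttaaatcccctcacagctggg
Hk2 and Pgk1 each had 2 matches to the common form, Slc2a1 and Pygm 1 match to each form, and Slc16a1 held an E-box.

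After 6 hr of sleep deprivation in WT, 9 of 15 glycolytic enzyme genes and the glucose transporter genes Slc2a1 and Slc2a3 were higher, and the lactate transporter gene Slc16a7 and the glycogen branching enzyme gene Gbe1 were lower. Of these enzyme genes, 2 of 15 were higher with the GC trend removed. Comparing SD to CS, 14 of 32 members were higher DEGs (43.8%; 24.6% of all 12913 genes tested) and 3 were lower (9.38%; 20.5% of all genes). Genes were called DEGs in limma when the p-value, adjusted over all genes tested by Benjamini-Hochberg, was 0.05 or less and the log2 fold change was 0.3 or more in either direction. Fold changes are of log2(rescaled CPM + 0.5), which understates those of low genes, and p-values measure the spread between mice of these groups. The median log2 fold change was 0.32 over the members and 0.04 over all genes. With the GC trend removed, 5 members were higher (9.26% of all genes) and 1 was lower (11% of all genes), and the members' median was 0.14.

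**Figure D1:**
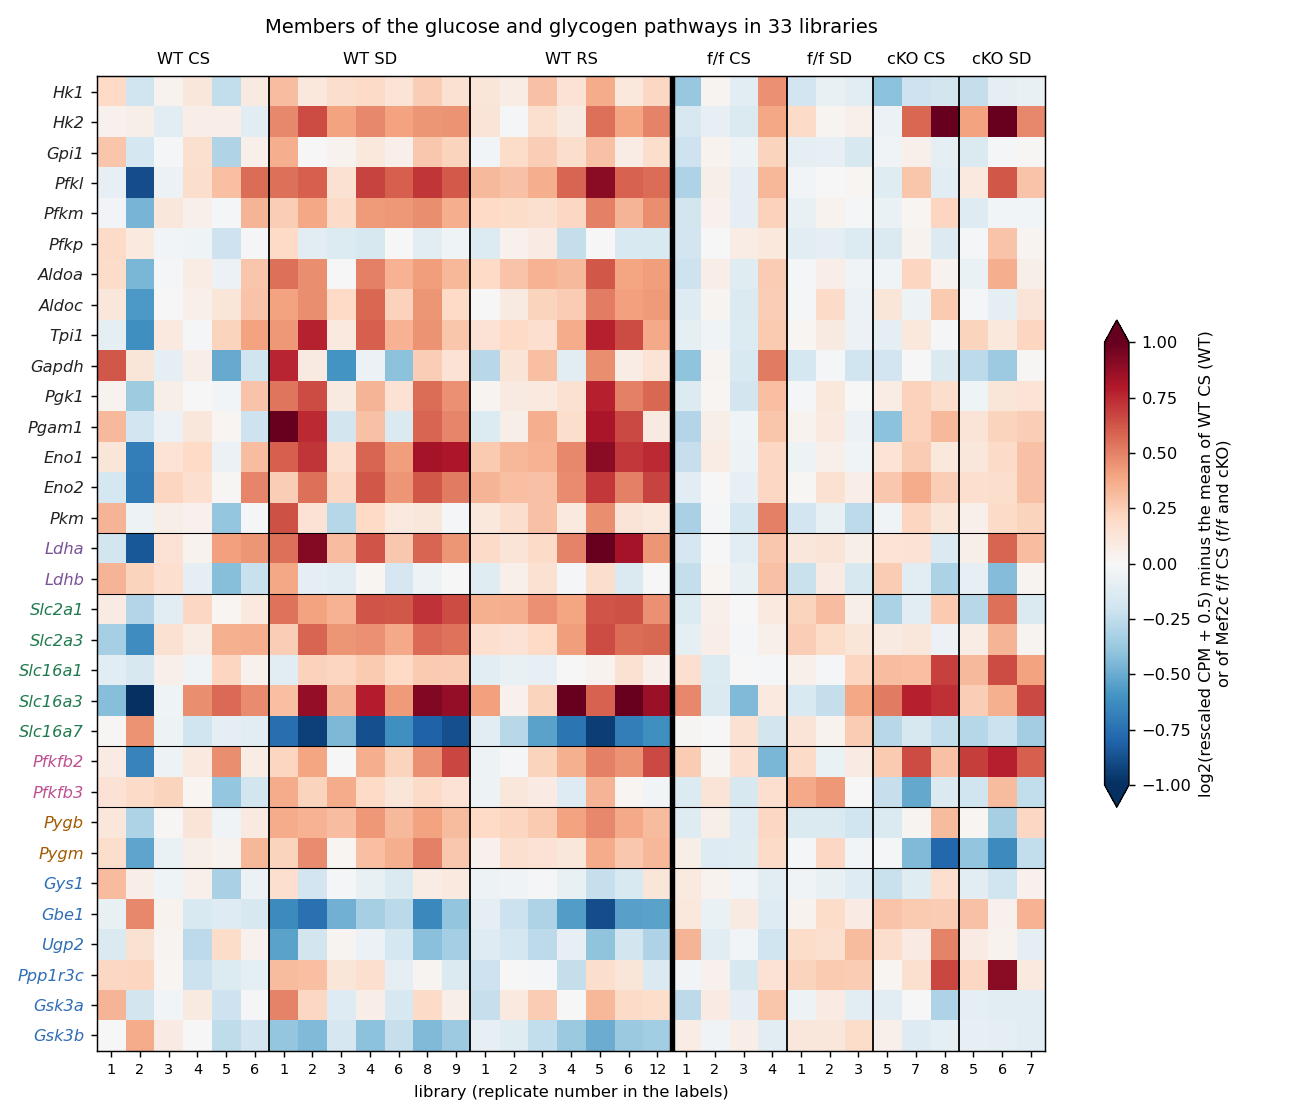
Levels of the 32 members (rows, by role) in 33 libraries (columns, by genotype and sleep state), as log2(rescaled CPM + 0.5) minus the gene's mean over WT CS (for WT) or over Mef2c f/f CS (for f/f and cKO), so that levels are not compared across the thick line. In WT SD, Slc16a7 and Gbe1 are blue and Hk2 and Slc2a1 red in every library.

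The glucose transporter gene Slc2a1 was at 33.1 (lowest library), 42.3 (median) and 47.1 (highest) rescaled CPM in CS and at 51.9, 63 and 67.5 in SD. All SD samples lay above all CS samples. It rose by 0.56 ± 0.09 (SE; adjusted p = 0.0010, limma), a 1.47-fold change, and it remained a DEG when any of the 13 libraries was left out, in all 11 alternative settings, without the 3 CS libraries with steep GC slopes (0.45), and with the GC trend removed (0.30). Slc2a3, the high-affinity neuronal glucose transporter gene, was at 64.8, 108 and 129 rescaled CPM in CS and 119, 137 and 149 in SD, with overlapping groups. Its change was 0.46 ± 0.14 (adjusted p = 0.018, limma) and 0.48 with the GC trend removed, but 0.20 and no longer past the threshold without the 3 CS libraries.

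Hk2 encodes the hexokinase whose level varies most with metabolic state, and Hk1 the constitutive brain hexokinase. Hk2 had 2.57, 2.94 and 2.99 rescaled CPM in CS and 3.9, 4.04 and 4.73 in SD, and the groups did not overlap. It rose by 0.47 ± 0.08 (adjusted p = 0.0013, limma), by 0.40 with the GC trend removed and by 0.47 without the 3 CS libraries. Hk1 was far more abundant, at 187, 231 and 254 rescaled CPM in CS and 238, 249 and 274 in SD, and its change of 0.19 did not pass (adjusted p = 0.067). Counting both directions of the comparison, members whose SD and CS groups did not overlap were Slc2a1, Hk2 and Pygb on the higher side (3 of 32; 4.68% of all genes) and Slc16a7 and Gbe1 on the lower side (2 of 32; 10.4% of all genes).

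Of the 15 glycolytic enzymes, 9 were higher, none was lower, and the median log2 fold change was 0.37. Eno1, the ubiquitous enolase, showed the largest rise among them, from 125, 220 and 250 rescaled CPM in CS to 227, 305 and 360 in SD, by 0.59 ± 0.15 (adjusted p = 0.0081, limma). Its groups overlapped, and so did those of Pgk1, which encodes phosphoglycerate kinase, the first enzyme of the pathway to return ATP. Pgk1 had 121, 157 and 189 rescaled CPM in CS and 164, 213 and 244 in SD, a rise of 0.40 ± 0.11 (adjusted p = 0.0128), and of 0.36 with the GC trend removed. The other 6 higher enzyme genes overlapped between the groups as well. Pfkl and Pfkm encode subunits of phosphofructokinase, the committed step. Pfkl went from 42.1, 81.8 and 116 rescaled CPM in CS to 87.2, 119 and 129 in SD (0.56 ± 0.18; adjusted p = 0.0209, limma), and Pfkm from 135, 190 and 237 to 213, 245 and 258 (0.36 ± 0.11; adjusted p = 0.0148). Of the aldolases, Aldoa went from 566, 793 and 942 to 775, 1036 and 1136 (0.37 ± 0.12; adjusted p = 0.0214), and Aldoc, enriched in astrocytes, from 252, 398 and 458 to 430, 498 and 559 (0.36 ± 0.12; adjusted p = 0.0262). The lowest values of all 4 genes in CS were well under their lowest values in SD, while the upper values lay closer together. Tpi1, the triose phosphate isomerase gene, went from 161, 253 and 325 to 263, 332 and 420 (0.43 ± 0.15; adjusted p = 0.0268), and Eno2, the neuronal enolase gene, from 210, 366 and 481 to 396, 493 and 528 (0.46 ± 0.16; adjusted p = 0.0257).

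None of these 6, nor Eno1, passed with the GC trend removed, where Aldoa turned to -0.09, and of the 9 only Eno1 (0.44) and Hk2 passed without the 3 CS libraries. Gapdh, often used as a reference gene, had 590 to 1289 rescaled CPM in CS and 554 to 1417 in SD, with a change of 0.02 (adjusted p = 0.93). Pkm (0.13), Gpi1 (0.15) and Pfkp (-0.05) did not pass either. Nor did Pgam1, at 64.0 to 92.6 rescaled CPM in CS and 65.3 to 155 in SD, with overlapping groups. Leaving out CS replicate 2 put the changes of Aldoa (0.28), Aldoc (0.24) and Pfkm (0.27) under the fold threshold, as it did those of Pygb (0.30) and Gsk3b (-0.27). Eno2 lost its call without CS replicate 1 or SD replicate 8, Tpi1 without CS replicate 1 or SD replicate 2 or 4, and Aldoc without SD replicate 4 or 8, with adjusted p of 0.0502 to 0.054.

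Ldha, whose subunit makes up the form of lactate dehydrogenase common in glycolytic tissue, was at 63, 121 and 155 rescaled CPM in CS and 137, 167 and 216 in SD and was a DEG (0.53 ± 0.18; adjusted p = 0.0255, limma), though not with the GC trend removed (0.40; adjusted p = 0.078), nor without CS replicate 1 or SD replicate 2 (adjusted p of 0.052 and 0.053). Ldhb had a change of -0.0035 and was 210 to 357 rescaled CPM in CS and 250 to 369 in SD. The log2 ratio of Ldha to Ldhb went from -1.31 ± 0.72 (SD, n = 6) to -0.77 ± 0.26 (n = 7), a difference of 0.54 with an exact two-sided permutation p of 0.10.

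Among the lactate transporters, Slc16a7 showed the largest fall of all members. It had 174, 189 and 273 rescaled CPM in CS and 105, 114 and 146 in SD, and all SD samples lay below all CS samples. It fell by 0.76 ± 0.11 on the log2 scale (adjusted p = 5.3e-04, limma), and by 0.62 without the 3 CS libraries, where it was still a DEG. With the GC trend removed the change was -0.15 and did not pass (adjusted p = 0.069). At 37.7% GC, its transcript was the lowest in GC content among the members. Slc16a1 moved the other way in level, with 24.4, 27.4 and 31.8 rescaled CPM in CS and 25.4, 32.1 and 32.8 in SD. Its change of 0.19 did not pass (adjusted p = 0.076) but was 0.49 and a DEG with the GC trend removed. Slc16a3, at 0.217 to 1.68 rescaled CPM in CS and 1.32 to 2.3 in SD, was a DEG (0.65 ± 0.24; adjusted p = 0.0355), but not with the GC trend removed (0.28), without the 3 CS libraries (0.15), or without any single one of CS replicates 1, 2 and 3 or SD replicates 2, 4, 8 and 9 (adjusted p of 0.06 to 0.078).

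**Figure D2:**
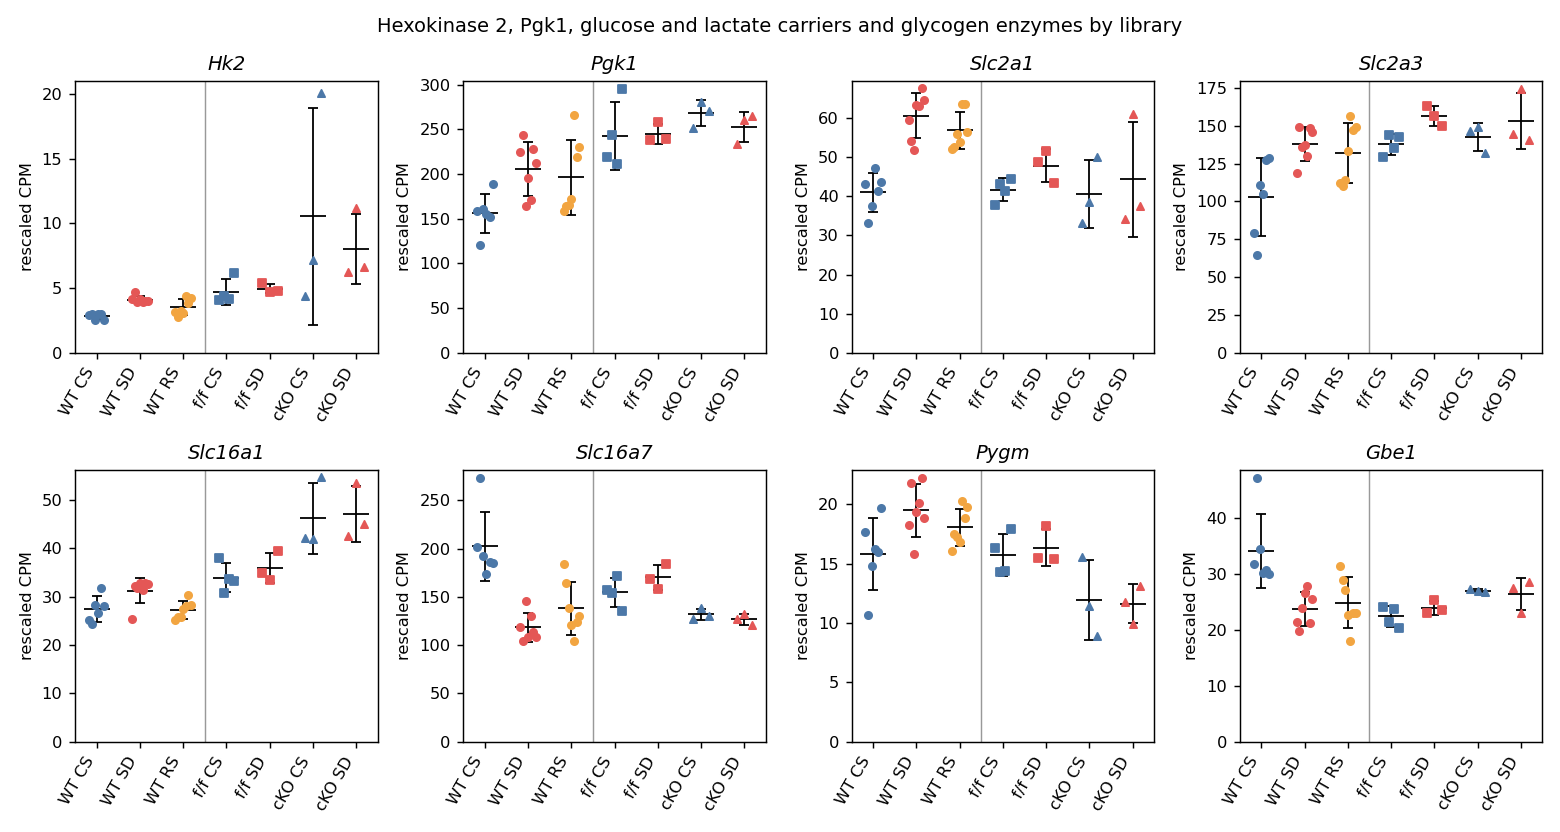
Rescaled CPM of 8 members in every library, by group (points), with bars for the group mean and standard deviation. Hk2, Slc2a1 and Slc16a7 separate CS from SD in WT, and Slc16a1, Slc16a7 and Pygm separate Mef2c f/f from Mef2c-cKO after SD.

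In the glycogen branch, Pygb, the brain form of glycogen phosphorylase, was higher, at 87.1, 112 and 118 rescaled CPM in CS and 134, 137 and 146 in SD. It rose by 0.36 ± 0.08 (adjusted p = 0.0033, limma), against 0.09 with the GC trend removed and 0.30, just under the fold threshold, without the 3 CS libraries. Pygm, the muscle form that astrocytes also express, had a change of 0.31 that did not pass (adjusted p = 0.053). Gbe1, the branching enzyme gene, was at 30.1, 31.4 and 47.3 rescaled CPM in CS and 19.9, 24 and 27.9 in SD, with no overlap. It fell by 0.50 ± 0.12 (adjusted p = 0.0051, limma), by 0.35 without the 3 CS libraries, and was at -0.22 with the GC trend removed (adjusted p = 0.068). Gsk3b, which encodes a kinase that inactivates glycogen synthase, had 283, 338 and 439 rescaled CPM in CS and 249, 259 and 301 in SD, with overlap, and fell by 0.35 ± 0.10 (adjusted p = 0.0115) but was at -0.08 with the GC trend removed. Its paralog Gsk3a, at 59.8% GC the highest of the members, was at 0.11 (adjusted p = 0.45) and fell by 0.44 with the GC trend removed (adjusted p = 0.0482). The glycogen synthase gene Gys1 (-0.01), Ugp2 (-0.24) and Ppp1r3c (0.10), which make the glucose donor and target phosphatase to glycogen, did not pass. Neither did the bifunctional regulators Pfkfb2 (0.33) and Pfkfb3 (0.23), although Pfkfb3 passed without the 3 CS libraries (0.42; adjusted p = 0.0154).

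**Figure D3:**
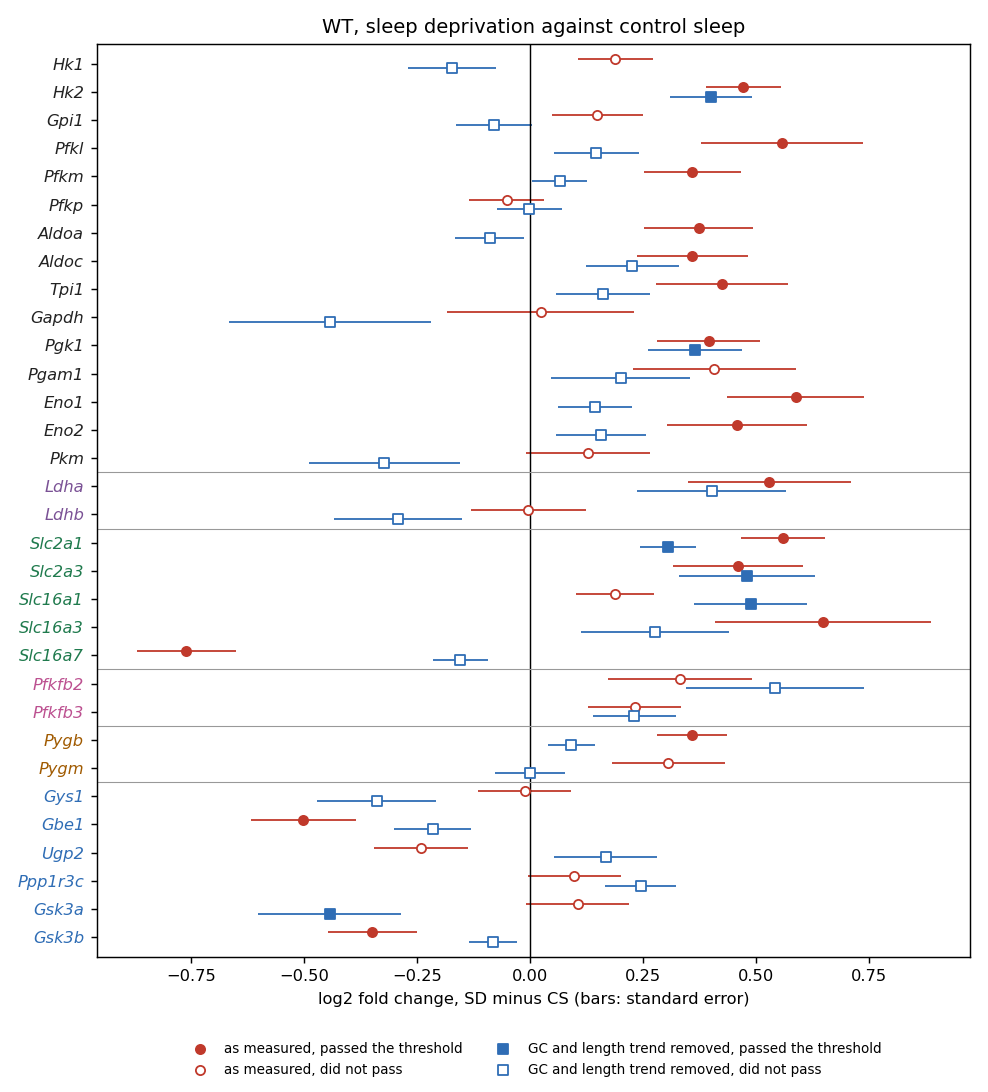
Log2 fold change from CS to SD in WT for each of the 32 members (by role), as fitted and with the GC trend removed (bars, SE; filled symbols passed the threshold). Slc2a1, Hk2, Pgk1 and Slc2a3 are past the threshold in both, and the falls of Slc16a7, Gbe1 and Gsk3b are smaller with the trend removed.

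Across genes, which are not independent replicates, the log2 fold change from CS to SD in WT had a Spearman rho of 0.73 with GC content over 12456 genes and 0.39 over the 32 members. The members' median GC content was 53.2%, that of the higher members 54.2%, that of the 3 lower members 42.5% and that of all genes 50.1%. In the members called in both fits, Slc2a1, Hk2, Pgk1 and Slc2a3, the direction was the same. Without the 3 CS libraries 6 of 32 members were DEGs, against 2304 of all 12940 genes. They were Slc2a1, Hk2, Eno1 and Pfkfb3 on the higher side (867 of all genes) and Slc16a7 and Gbe1 on the lower side (1437 of all genes). Hk2 and Slc2a1 were the members that passed in the original fit, with the GC trend removed and without these libraries.

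**Figure D4:**
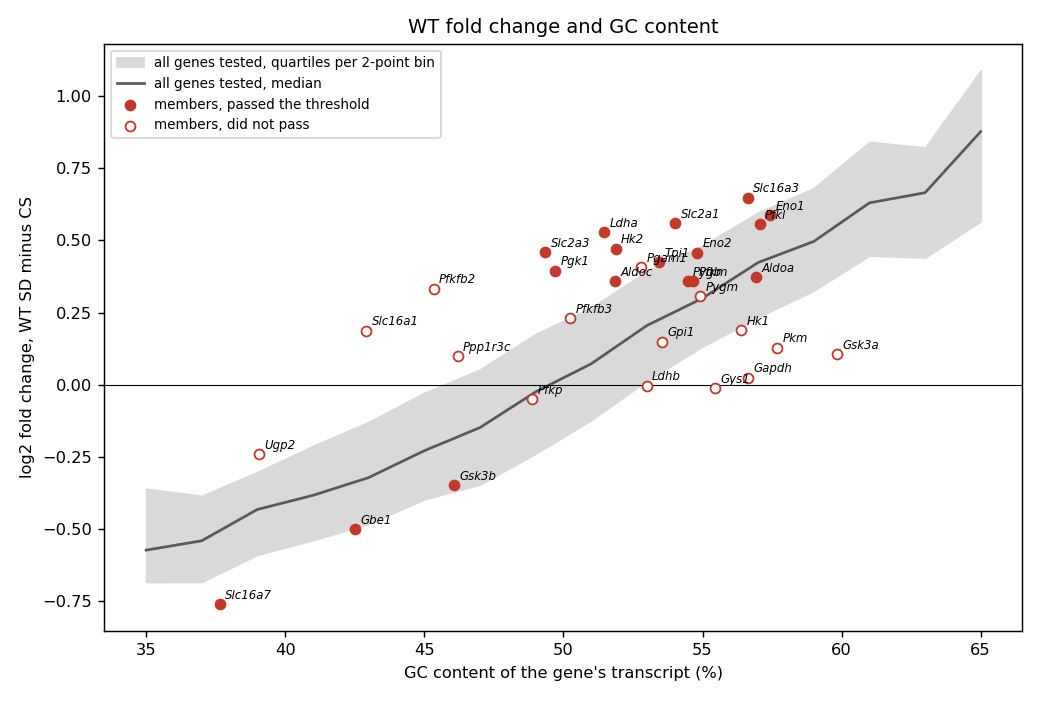
Log2 fold change from CS to SD in WT (y axis) against the GC content of the transcript (x axis, percent) for the members (points) and all genes tested in bins of GC content (line, median; band, quartiles). Filled points passed the threshold. Slc16a7, at 37.7% GC, is the lowest member. Hk2, Slc2a1, Pgk1 and Slc2a3 lie above the band, and so do other members, among them Ldha, Slc16a1 and Pfkfb2.

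After 2 hr of recovery sleep, fewer members differed from CS than after SD, and fewer of all genes as well (2232, against 5826). Comparing RS to CS in WT, 5 of 31 members tested were higher (16.1%; 9.28% of all 12752 genes) and 2 were lower (6.45%; 8.22% of all genes). The median was 0.21 over the members and 0.02 over all genes. Slc2a1 was at 52.2, 56 and 63.5 rescaled CPM, above every CS sample, a rise of 0.47 ± 0.09 (adjusted p = 0.0329, limma). Pygb, at 124, 134 and 150, also lay above every CS sample (0.32 ± 0.08; adjusted p = 0.0346). These were 2 of 31 members whose RS group lay wholly above CS (1.7% of all genes), and no member lay wholly below (2.02% of all genes). The other higher members, all glycolytic enzymes, overlapped CS. Eno1 had 242, 282 and 378 rescaled CPM (0.54 ± 0.16; adjusted p = 0.0392), Eno2 421, 476 and 561 (0.47 ± 0.16; adjusted p = 0.0495) and Aldoa 890, 991 and 1192 (0.37 ± 0.11; adjusted p = 0.0435). Slc16a7, with 104, 130 and 184 rescaled CPM, overlapped CS and fell by 0.56 ± 0.13 (adjusted p = 0.0335), and Gbe1, with 18, 23.1 and 31.4, fell by 0.45. Hk2 had 2.79, 3.23 and 4.38 rescaled CPM in RS and was not a DEG. No member met both thresholds with the GC trend removed, and Slc2a1 had an adjusted p of 0.0235 at a log2 fold change of 0.27. Without the 3 CS libraries limma gave 0 member DEGs, with 7 at an unadjusted p of at most 0.05, and 0 over all genes. Each of the 7 calls was lost without CS replicate 3 alone, or without any of RS replicates 3, 4, 5, 6 and 12.

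Between SD and RS directly, no member passed in limma (0.0232% of all genes did), and edgeR and DESeq2 on the recovered reads gave 0 as well, where over all 12921 genes they called 3 and 54. At an unadjusted p of at most 0.05 in limma there were 3 of 32 members (683 of all 12921 genes), all lower in RS. They were Slc16a1 (-0.19), Pfkfb3 (-0.18) and Hk2 (-0.21), with a smallest adjusted p of 0.651. Member changes ran from -0.21 to 0.20.

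Sleep deprivation of Mef2c f/f mice gave no member DEG in limma (0.0403% of all genes), edgeR or DESeq2, where edgeR called 9 and DESeq2 467 of all 12410 genes. None passed with the GC trend removed either (smallest adjusted p = 0.075, Slc2a1). In limma 2 of 32 members had an unadjusted p of at most 0.05, against 2111 of all 12410 genes, and both were higher in SD. Ppp1r3c, which targets a phosphatase to glycogen, was at 31.1, 32.7, 28.3 and 35.1 rescaled CPM in CS and 37.1, 38.2 and 38 in SD, and its change was 0.25 (adjusted p = 0.206). Slc2a3 was at 129, 144, 136 and 142 in CS and 163, 156 and 150 in SD, with a change of 0.18 (adjusted p = 0.24), and in both genes all SD samples lay above all CS samples. Slc2a1, at 37.7, 43.1, 41.4 and 44.4 rescaled CPM in CS and 48.7, 51.6 and 43.3 in SD, overlapped in 1 library and had a change of 0.20 (adjusted p = 0.30). Slc16a7 was at 157, 154, 172 and 136 rescaled CPM in CS and 168, 158 and 184 in SD, a change of 0.14 (adjusted p = 0.46). Hk2 was at 4.09, 4.36, 4.16 and 6.2 in CS and 5.37, 4.72 and 4.81 in SD, where 1 CS library exceeded all SD libraries, with a change of 0.09.

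In Mef2c-cKO mice no member passed from CS to SD in limma (0.0234% of all genes), edgeR or DESeq2. None had an unadjusted p of at most 0.05 in limma (391 of all 12810 genes did), and changes ran from -0.26 (Slc16a3) to 0.32 (Pfkl). None passed with the GC trend removed, and over all 12810 genes edgeR called 3 and DESeq2 25. Slc2a1 had 33.2, 38.5 and 50.1 rescaled CPM in CS and 34.2, 61.1 and 37.5 in SD. Slc16a7 had 127, 138 and 130 in CS and 127, 133 and 121 in SD. Both genes overlapped widely between the states.

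The difference in the response to SD between Mef2c-cKO and Mef2c f/f, tested as an interaction on the adjusted p alone, passed for no member (0.00778% of all genes) in limma, edgeR or DESeq2, nor with the GC trend removed, and over all 12860 genes edgeR called 1 and DESeq2 59. Pfkp (0.30) and Ugp2 (-0.46) had an unadjusted p of at most 0.05 in limma, as did 1005 of all 12860 genes, with a smallest adjusted p of 0.616 among members. Pairs of 4 and 3 or 3 and 3 samples give wide intervals, so the lack of a call does not show that the responses were alike.

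The response of Mef2c f/f mice minus that of WT differed for 3 of 32 members upward (9.38%; 9.35% of all genes) and for 1 downward (3.1%; 5.78% of all genes). The median was -0.29 over members and -0.05 over all genes. Slc16a7 (0.90 ± 0.17; adjusted p = 0.0112, limma), Gbe1 (0.60; adjusted p = 0.0351) and Gsk3b (0.49; adjusted p = 0.0365) fell in WT and were at 0.14, 0.10 and 0.14 in Mef2c f/f. In Mef2c f/f, Gbe1 had 24.1, 21.4, 23.8 and 20.4 rescaled CPM in CS and 23, 25.4 and 23.7 in SD, and Gsk3b 341, 317, 340 and 300 in CS and 352, 351 and 369 in SD. Pygb, which rose in WT, had 110, 126, 111 and 140 in CS and 109, 110 and 105 in SD of Mef2c f/f, where every SD sample was below every CS sample at a change of -0.16, and the responses differed by -0.52 (adjusted p = 0.0208). None of these 4 passed with the GC trend removed, and the difference for Slc16a7 was 0.16. Without the 3 CS libraries, Slc16a7 (0.76) and Pygb (-0.46) passed. Leaving out f/f SD replicate 3 ended all 4 calls (adjusted p of 0.065 to 0.11), and f/f CS replicates 2 and 4 and f/f SD replicate 1 each ended those of Gbe1, Gsk3b and Pygb. WT and Mef2c-line libraries differed in depth and in the share of reads on the listed genes, so levels were not tested between them, and strain background and library set cannot be told apart in this difference.

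Between Mef2c-cKO and Mef2c f/f in CS, no member was a DEG in limma or edgeR (3.17% of all genes were higher and 4.5% lower). In limma 7 of 32 members had an unadjusted p of at most 0.05, against 3557 of all 12681 genes. DESeq2 called 2, Slc16a1 and Hk2, among 2095 of all 12681 genes. Slc16a1 had 38, 30.7, 33.7 and 33.3 rescaled CPM in f/f and 42.1, 41.9 and 54.8 in cKO, without overlap, and a log2 fold change of 0.43 ± 0.12 (adjusted p = 0.0585, limma). With the GC trend removed it was a DEG (0.37; adjusted p = 0.0451). Hk2 had 4.43, 7.15 and 20.1 rescaled CPM in the 3 cKO samples, which overlapped f/f, and a change of 0.84 ± 0.41 (adjusted p = 0.21, limma). Without cKO CS replicate 8, which has the highest value, the change was 0.26. The same library had a summed level of 8 microglial markers of 625 rescaled CPM, against 196 and 243 in the other cKO CS samples and 162 to 190 in f/f. Its 8 astrocyte markers summed to 5622, against 3681 and 4224 in cKO and 4087 to 4407 in f/f. It was the lowest of the cKO CS samples in 8 meningeal markers (204, against 359 and 434) and in 5 red blood cell markers (10.7, against 63.0 and 108). Whether these bear on Hk2 was not tested.

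After SD, Mef2c-cKO mice had more Slc16a1, Pfkfb2 and Pkm and less Slc16a7 and Pygm than Mef2c f/f mice. These were 3 of 32 members higher (9.38%; 9.1% of all 12774 genes) and 2 lower (6.25%; 5.99% of all genes), close to the share of all genes, and the median was 0.09 over members and 0.01 over all genes. The groups did not overlap for 10 members on the higher side (21.6% of all genes) and 4 on the lower side (18.7% of all genes).

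Slc16a7, the neuronal lactate transporter gene, had 168, 158 and 184 rescaled CPM in f/f and 127, 133 and 121 in cKO. It fell by 0.42 ± 0.07 on the log2 scale (adjusted p = 0.0083, limma), by 0.34 with the GC trend removed, and remained a DEG when any of the 6 libraries was left out and in all 9 alternative settings. Slc16a1 had 35, 33.6 and 39.4 in f/f and 42.6, 53.6 and 45 in cKO, a rise of 0.38 ± 0.10 (adjusted p = 0.0378; 0.39 with the GC trend removed). It lost the call when any of the 3 f/f samples or cKO SD replicate 6 or 7 was left out (adjusted p of 0.033 to 0.13; without replicate 6 the fold was under the threshold).

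Pfkfb2, which makes and removes the allosteric activator of phosphofructokinase, was a low gene at 2.37, 1.9 and 2.15 rescaled CPM in f/f and 3.56, 3.81 and 3.3 in cKO, and rose by 0.62 ± 0.13 (adjusted p = 0.0155, limma). Pkm had 675, 733 and 644 in f/f and 798, 884 and 902 in cKO and rose by 0.33 ± 0.08 (adjusted p = 0.0306), or 0.20 and not past the threshold with the GC trend removed. Neither gene overlapped between the genotypes. Pfkfb2 lost its call without f/f SD replicate 3 (adjusted p = 0.054), and Pkm without f/f SD replicate 1 or 3 or cKO SD replicate 7 (adjusted p of 0.081 to 0.12). Pygm had 15.5, 18.1 and 15.4 in f/f and 11.8, 9.89 and 13.1 in cKO, and fell by 0.48 ± 0.12 (adjusted p = 0.0303) and by 0.59 with the GC trend removed. Its call was lost without any of the 3 f/f samples or cKO SD replicate 5, with adjusted p up to 0.092. Hk2, at 5.37, 4.72 and 4.81 in f/f and 6.28, 11.2 and 6.67 in cKO, did not overlap but did not pass in limma (0.60 ± 0.20; adjusted p = 0.071), while DESeq2 called it (adjusted p = 0.0191). Gsk3b had an adjusted p of 0.0329 at -0.23, under the fold threshold. In the same comparison 6 of 8 microglial markers were higher (3 with the GC trend removed), with summed levels of 180 to 188 in f/f and 232 to 259 in cKO. Of 8 markers each, 3 of excitatory neurons were lower, 4 of inhibitory neurons were higher and 2 lower, and 2 of astrocytes were higher. The part of these cell types in the member differences was not tested.

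**Figure D5:**
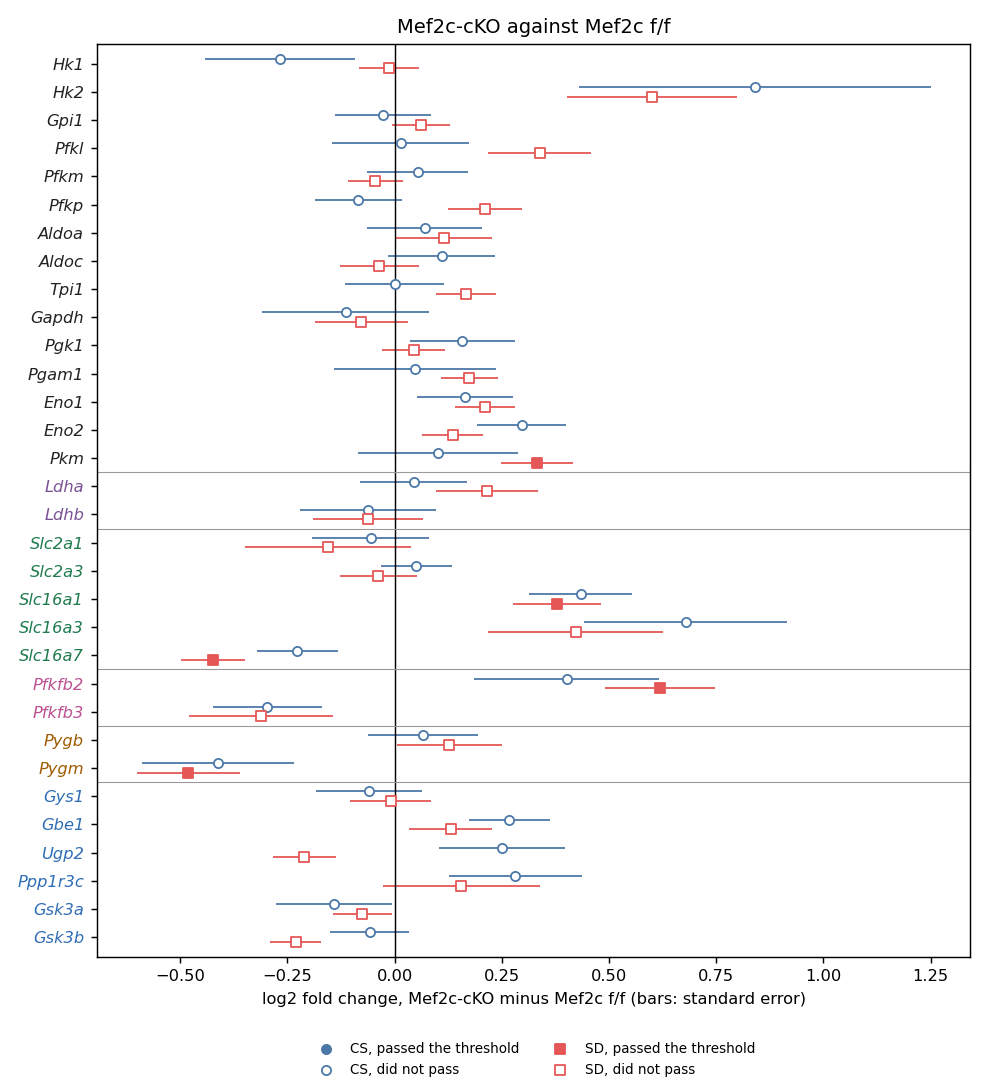
Log2 fold change from Mef2c f/f to Mef2c-cKO for the 32 members in CS and in SD (bars, SE; filled symbols passed the threshold). Slc16a1 is above 0 and Slc16a7 and Pygm are below 0 in both states, and the 5 members past the threshold are all in SD.

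Ratios within a library do not depend on its scale factor. In all, 10 pairs of isozymes or transporters (Hk2 to Hk1, Pfkl and Pfkp each to Pfkm, Aldoa to Aldoc, Eno1 to Eno2, Ldha to Ldhb, Slc2a1 to Slc2a3, Slc16a1 to Slc16a7, Pygm to Pygb and Gsk3a to Gsk3b) were compared in 7 comparisons with two-sided exact permutation tests, and 0 of 70 passed after Benjamini-Hochberg adjustment. A single ratio at the smallest p of a WT comparison with CS adjusts to 0.082 and none could pass in the Mef2c line alone, so this count says little. The log2 ratio of Slc16a1 to Slc16a7 was -3.49 to -2.55 in CS and -2.22 to -1.70 in SD of WT, with no overlap, and its mean rose from -2.87 ± 0.34 (SD, n = 6) to -1.92 ± 0.23 (SD, n = 7; exact permutation p = 0.00117, the smallest possible; adjusted p = 0.082). The difference was 0.95, and 0.65 with the GC trend removed, and it was 0.83 to 1.02 with any library left out. In RS the mean ratio was -2.32, 0.55 above CS (exact p = 0.016) and 0.40 below SD (exact p = 0.029). In Mef2c f/f it was -2.19 in CS and -2.24 in SD, and in Mef2c-cKO -1.52 and -1.43. The genotypes did not overlap in either state, and the differences of 0.67 in CS (exact permutation p = 0.057) and 0.81 in SD (exact permutation p = 0.10) had the smallest p that these group sizes allow, so neither could reach 0.05. Hk2 to Hk1 rose by 0.35 from CS to SD in WT (exact p = 0.0128; adjusted p = 0.29). Pfkp to Pfkm fell by 0.41 (exact p = 0.0175; adjusted p = 0.29), and its difference was -0.07 with the GC trend removed. Gsk3a to Gsk3b rose by 0.46 (exact p = 0.0245; adjusted p = 0.29), turning to -0.36 with the GC trend removed.

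Beyond the members, 95 genes of the same pathways were listed (other glycolytic and hexose genes, other glucose transporters, partners of lactate and pyruvate, other glycogen genes, the pentose phosphate pathway and regulators of glycolysis). From CS to SD in WT, 16 of 78 tested were higher (20.5%, against 24.6% of all genes) and 16 lower (20.5%, as over all genes). With the GC trend removed, 3 were higher (9.26% of all genes) and 9 lower (11% of all genes). Higher ones included Txnip, which encodes an inhibitor of glucose uptake (0.75, and 0.81 with the GC trend removed). It was at 6.3, 9.59 and 13.3 rescaled CPM in CS and 14.3, 15.6 and 16.6 in SD, without overlap. Egln2, an oxygen-sensing prolyl hydroxylase gene, was at 0.99 (0.34 with the GC trend removed), Pgls at 1.06 and Taldo1 at 0.75, both of the pentose phosphate pathway, and Bsg, the chaperone of lactate transporters, at 0.59. With the GC trend removed, 0 genes of the pentose phosphate pathway and 0 of the partners of lactate and pyruvate were higher. Lower ones included Slc2a13 (-0.57), Hif1a, the oxygen-regulated subunit of a hypoxia-inducible factor (-0.67), and Prkaa2 and Ppargc1a (both -0.55), and of these Slc2a13 passed with the GC trend removed (-0.30). From CS to RS, 5 of 76 were higher (6.58%, against 9.28% of all genes) and 7 lower (9.21%, against 8.22%). None passed from SD to RS, in the SD responses of Mef2c f/f and Mef2c-cKO, or in the difference between these responses.

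Between Mef2c-cKO and Mef2c f/f, 1 of 79 was higher (1.27%, against 3.17% of all genes) and 5 lower (6.33%, against 4.5%) in CS. In SD, 7 of 81 were higher (8.64%, against 9.1%) and 10 lower (12.3%, against 5.99%). Hkdc1, a gene of the hexokinase family, had 15, 16.3, 18.2 and 23.8 rescaled CPM in f/f and 9.57, 8.71 and 5.46 in cKO in CS, and 19.3, 17.6 and 19.3 in f/f and 6.99, 5.86 and 7.23 in cKO in SD. Every cKO sample was below every f/f sample, and it fell by 1.18 in CS and by 1.42 in SD. In SD, Slc2a10 (0.88), Slc2a9 (0.74) and Galm (0.69) were higher, and Pdp1, the phosphatase that activates pyruvate dehydrogenase (-0.66), and Emb, a partner of the Slc16a7 protein (-0.61), were lower.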

How the data were processed

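Frontal cortex RNA-seq of 33 mice was analysed. The authors deposited CPM, made with edgeR from HTSeq counts of trimmed reads that STAR had placed uniquely on the mm10 genome, and all 33 libraries and 21565 genes were used. The annotation release is not given in the sources used here. The members and gene lists were chosen with earlier results of these data known. Each library's CPM was rescaled by its median-of-ratios factor over the 33 libraries, and log2(value + 0.5) was the response in limma 3.58.1 (R 4.3.3; lmFit, then eBayes with trend). A fit held only the groups it compared and the genes that reached a CPM of 1 in every replicate of a compared group. The threshold was 0.05 on the Benjamini-Hochberg adjusted p together with 0.3 on the size of the log2 fold change, or the adjusted p alone for interactions. All members were accounted for, with values in full for those called in a comparison, and related genes were named from DEGs with a log2 fold change of at least 0.5 in size, though not all of these are reported here. Whole reads were recovered from the CPM for 100% of 711645 values within 0.01 of a whole number, and edgeR 4.0.16 and DESeq2 1.42.0 were run on them. Isozyme ratios were compared with exact permutation tests. Alternatives were pseudocounts of 0.1 and 1, deposited CPM without rescaling, quantile normalization, no filter, a trend on GC content (5 degrees of freedom) and transcript length (4) removed, a fit over all groups of the same line, the replicate number as a block, each library left out and, chosen after seeing the data, 3 WT CS libraries with steep GC slopes left out. GC content and lengths came from a GENCODE annotation of GRCm38. The procedure was tested on simulated data. Totals were 18935045 to 249046089 reads per library, and Spearman's rho between replicates, in 72 pairs, was 0.971 to 0.995, each pair differing by more than sampling noise. Whether samples of a group were littermates is not given in the labels.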

Additional observations from a re-analysis of the deposited data

Results flagged for a closer look

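Single libraries stood apart from the rest of their group for 8 of 128 gene and group combinations tested with Dixon's ratio, where chance gives about 1 in 20. Hk2 was 4.73 rescaled CPM in WT SD replicate 2, against 3.90 to 4.14 in the other SD mice, and 6.20 in Mef2c f/f CS replicate 4, against 4.09 to 4.36. In WT SD replicate 1, Pfkp was 395 (308 to 342 in the others), Ldhb 369 (250 to 285) and Slc16a1 25.4 (31.4 to 32.8). In WT SD replicate 3, Pfkl was 87.2 (115 to 129). In WT CS replicate 2, which had the steepest GC slope of the WT libraries, Slc16a7 was 273 (174 to 202) and Gbe1 47.3 (30.1 to 34.5). No explanation of these values was tested.

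For 4 members, the response to SD differed between Mef2c f/f and WT by the interaction test in limma. These were 3 of 32 upward (9.35% of all genes) and 1 downward (5.78%), so the share was no higher than over all genes. The difference was 0.90 for Slc16a7 (adjusted p = 0.0112), 0.60 for Gbe1 (adjusted p = 0.0351), 0.49 for Gsk3b (adjusted p = 0.0365) and -0.52 for Pygb (adjusted p = 0.0208). With the GC trend removed, these were 0.16, 0.23, 0.23 and -0.19, none past the threshold.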

How the results depend on the processing

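From CS to SD in WT, 17 members were DEGs. Settings that moved this count by over 1.5 times were the GC trend removed (6), the replicate number as a block (1, Slc2a1) and the 3 WT CS libraries with steep GC slopes left out (6). Over all genes, the count of 5826 became 2523, 287 and 2304 in these settings. With any library left out, the members' count was 11 to 19, the lowest without WT CS replicate 2. Without rescaling, the deposited CPM gave 25, of which 24 were higher and 1 lower, and the median of all genes was then 0.30. With the GC trend removed, Aldoa was at -0.089 in SD and at -0.021 in RS, relative to CS. From CS to RS, the count of 7 became 11 with deposited CPM, 2 with no filter, 0 with the GC trend removed, 11 in a fit over all WT groups, 11 with the block and 0 without the 3 libraries. Over all genes, 2232 became 2665, 385, 624, 4018, 4279 and 0 in the same order. Leaving out a library gave 0 to 12 members, with 0 without WT CS replicate 3 or WT RS replicates 3, 4, 5, 6 or 12 (0 to 3 of all genes), 1 without WT CS replicate 1 or 2, and 12 without WT CS replicate 6. Between Mef2c f/f and Mef2c-cKO in CS, the count of 0 became 2 with deposited CPM (Slc16a1 and Eno2), 1 with quantile normalization, 1 with the GC trend removed, 2 with DESeq2 and 2 in a fit over all groups of the line. Over all genes, 973 became 1228, 875, 1497, 2095 and 2167 in the same order. In SD, the members' count of 5 became 3 with no filter and 1 in a fit over all groups of the line, where 1927 of all genes became 2012 and 1019. It was 1 to 7 with a library left out, and the members' median of 0.09 became -0.043 with the GC trend removed. The difference between the responses of Mef2c f/f and WT went from 4 members to 11 with deposited CPM (1 upward, 10 downward), 7 with quantile normalization, 0 with the GC trend removed, 0 with the block and 2 without the 3 libraries. Over all genes, 1983 became 3426, 1399, 286, 0 and 530 in the same order. The members' count was 0 to 7 with a library left out, 0 without f/f SD replicate 3. The count was 0 with any library left out for SD to RS, for Mef2c-cKO CS to SD, for the genotypes in CS and for the difference between the responses of Mef2c-cKO and Mef2c f/f, and 0 to 1 for Mef2c f/f (Ugp2, 0.33, without CS replicate 1; adjusted p = 0.0471). The cause of these shifts was not tested. Groups share replicate numbers, but not every pair of same-numbered samples deviated together (correlation over 0.1) in any comparison with 3 or more pairs, and not every sample correlated best with its own number, so the numbers were not used as pairs. In WT these correlations were 0.051 to 0.65 for CS to RS, -0.33 to 0.54 for CS to SD and -0.72 to 0.32 for SD to RS. They were 0.041 to 0.22 in Mef2c f/f. In Mef2c-cKO they were 0.070 and 0.15, where each sample correlated best with its own number. Mef2c f/f and Mef2c-cKO share no number, so no block could be fitted between them. Low genes such as Slc16a3, with 13 reads in 1 library, limit what depth can show.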

Other observations

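In the Mef2c-cKO mice, 1 library of each sleep state held the extreme value of several members together. In cKO CS replicate 8, Hk2 was 20.1 rescaled CPM, Ppp1r3c 50.8, Slc16a1 54.8 and Slc2a1 50.1, each the highest of the 3 CS mice, and Pygm was 8.89, the lowest. In cKO SD replicate 6, Hk2 was 11.2, Ppp1r3c 59.6, Slc16a1 53.6 and Slc2a1 61.1, each the highest of the 3 SD mice, and Pygm was 9.89, again the lowest. These genes were picked after their values were seen, and the pattern was not tested.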
